A study of Rattus norvegicus with 28 samples.

Results

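Transcript levels in the terminal ileum of rat pups on day 4 of life were compared between 3 pups given formula together with hypoxic stress 3 times a day and 3 breast-fed pups. These 6 arrays were chosen by the regimen and day in their titles, out of 28 arrays in the series, and all non-control probe sets of the table were considered. The series follows a rat model of necrotizing enterocolitis, a disease of the bowel of preterm infants, with both regimens sampled on days 1 to 4 and a group of unfed newborns. Each array held total RNA from the terminal ileum of 1 pup on an Affymetrix rat array. No pups received only one of formula and hypoxia, so these cannot be told apart. The labels name no strain, genotype, litter or sex, and no further treatment of the breast-fed pups.

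The terminal ileum takes up bile acids and, in the suckling rat, still absorbs intact milk proteins through large lysosomes. Rat milk supplies fat, hormones and growth factors, while formula changes both the nutrients and the microbes that the epithelium meets. In necrotizing enterocolitis the epithelial barrier fails and the gut wall becomes inflamed.

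Array quality differed within both groups. On breast-fed replicate 2, 48 of the 757 probe sets whose median on the remaining arrays exceeded 500 were dimmer than that median by over 16-fold. On the other 5 day 4 arrays 0 to 2 were. These are called lost probe sets below. Breast-fed replicate 1 was deposited at a brighter scale, with a 2% trimmed mean of 209.2 against 150.3 on the other 5. All arrays were therefore quantile normalised, and each result is also given without breast-fed replicate 2 where that changes it. Correlations between replicates were 0.862 to 0.936 among the breast-fed arrays and 0.930 to 0.968 under formula and hypoxia. Estimated array weights, which fall as an array deviates from its group, were 0.549, 2.66 and 1.36 for formula and hypoxia replicates 1 to 3. They were 0.786, 0.528 and 1.25 for breast-fed replicates 1 to 3. The 3′ to 5′ ratios of the control transcripts, a sign of RNA integrity, overlapped between the regimens, at 1.10 to 1.40 for GAPDH in the breast-fed pups and 1.14 to 1.38 under formula and hypoxia. The 3 breast-fed arrays came from the second of 2 accession runs, and formula and hypoxia replicates 1 and 2 came from the first. Nothing in the labels says whether a run was an array batch, and only formula and hypoxia replicate 3 shared a run with the breast-fed pups.

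Transcripts that mark the ileum were present in both groups. Fabp6, the ileal bile acid binding protein, had a mean normalised intensity of 1049 ± 313 in the breast-fed pups and 1300 ± 389 under formula and hypoxia (SD, n = 3 each, as throughout). Its log2 difference was 0.32 with an adjusted p of 0.741 on the brightest of its probe sets. A second Fabp6 probe set ran the other way. It read 218, 183 and 164 in breast-fed replicates 1 to 3 and 2.71, 5.46 and 5.79 under formula and hypoxia, with all formula values below the constant of 8 added before taking logs. Its log2 difference was -3.96 (adjusted p = 0.000755 by limma with 1 test per probe set), and its means on days 1 to 3 were 26.1, 10.9 and 179 in the breast-fed pups and 25.9, 15.4 and 14.8 under formula and hypoxia. The probe sets of Fabp6 thus disagreed in sign. Of 24 epithelial genes on the list for ileal epithelium, 20 were measured and 0 passed the limma test. At an unadjusted p under 0.05, 2 of them were higher and 1 was lower, beside 6.72% and 8.29% of all genes. Slc10a2, the apical bile acid transporter, read 32.7, 37.2 and 36.2 in breast-fed replicates 1 to 3 and 78.8, 56.2 and 50 under formula and hypoxia. Its 3 formula values were the higher ones, without overlap, but the adjusted p was 0.410.

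Of 3185 genes tested, 63 (1.98%) differed at an adjusted p under 0.05, with 22 higher (0.691%) and 41 lower (1.29%) under formula and hypoxia. The difference was more than 2-fold for 57 of the 63. With the deposited scaling in place of quantile normalisation, 12 were higher and 42 lower. At an unadjusted p under 0.05 there were 478 genes. The median difference over all genes was 0.0073 on the log2 scale. The count was sensitive to single arrays. Without breast-fed replicate 2 it was 26 (0.816%), of which 21 were among the 63 and 13 were higher and 13 lower (0.408% each), and without formula and hypoxia replicate 1 it was 16. Without formula and hypoxia replicate 2 it was 29. Leaving out breast-fed replicate 3 gave 44, with 21 lower in place of 41. In these fits the 2 arrays left in a group were assumed to vary like the other groups. Formula and hypoxia replicate 1 was the lowest of its group for 26 of the 41 genes called lower, beside 36.5% of all genes. Within the second run alone, where formula and hypoxia had 1 pup, 0 genes were called by limma, with 142 genes at an unadjusted p under 0.05. With the run as a term in the fit of all arrays, 19 genes were called, 18 of them among the 63. All 63 called genes had no overlap between the 6 arrays, so leaving out arrays says nothing further about their direction.

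**Figure D1:**
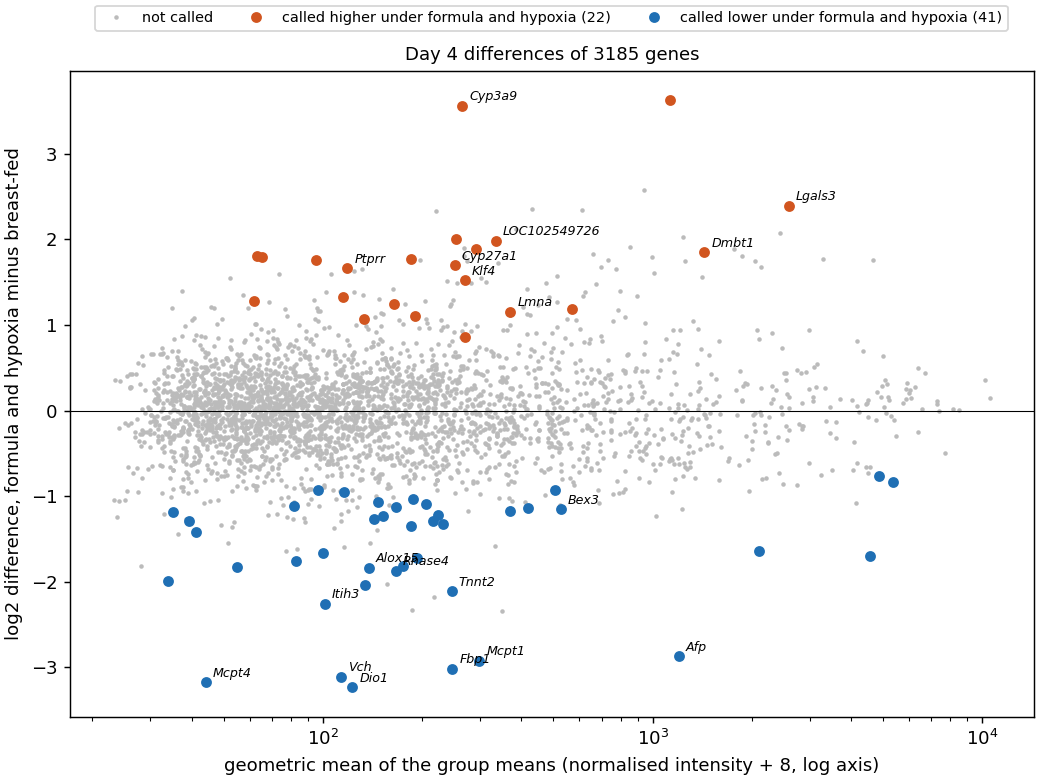
Log2 difference between formula and hypoxia and breast-fed pups on day 4 (vertical axis) against the geometric mean of the 2 group means (normalised intensity + 8, log axis) for 3185 genes. Orange points are the 22 genes called higher and blue points the 41 called lower, with the genes named by the rule labelled, and Cyp3a9 and Dio1 lie at 3.56 and -3.24.

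By the rule for naming, 19 genes were called with and without breast-fed replicate 2, had no overlap between the groups and reached a mean intensity of 100 in the higher group. There were 8 rises and 11 falls. The rises covered enzymes of drug and sterol metabolism (Cyp3a9, Cyp27a1), mucosal proteins of the epithelium (Lgals3, Dmbt1), a transcription factor (Klf4), a phosphatase (Ptprr), the nuclear lamina (Lmna) and a long noncoding RNA. The falls covered a thyroid hormone enzyme (Dio1), a gluconeogenic enzyme (Fbp1), 3 mast cell chymases (Mcpt1, Mcpt4, Vch), serum proteins (Afp, Itih3), a lipoxygenase (Alox15), a ribonuclease (Rnase4), a troponin (Tnnt2) and Bex3. Fold changes are on the log2(intensity + 8) scale, which understates the change of dim genes.

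**Figure D2:**
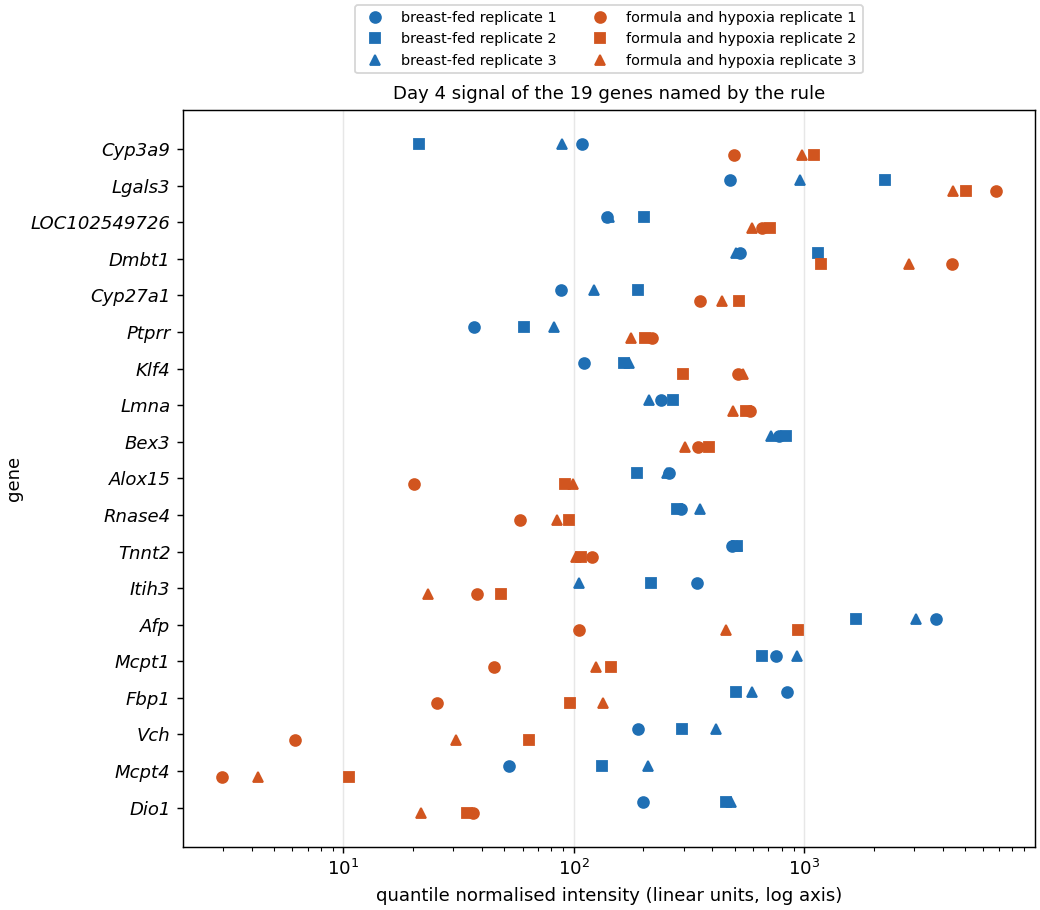
Normalised intensity (log axis) on each of the 6 day 4 arrays for the 19 genes named by the rule, blue for breast-fed and orange for formula and hypoxia, with the symbol giving the replicate. The groups do not overlap for any of these genes, which the rule required, and formula and hypoxia replicate 1 is the lowest array for Afp at 105 and for Fbp1 at 25.4.

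Among enzymes of drug and sterol metabolism, Cyp3a9, a cytochrome P450 of steroid and drug oxidation, had the largest rise of these 19 genes. It read 109, 21.4 and 89.0 in breast-fed replicates 1 to 3 and 496, 1100 and 976 under formula and hypoxia. All 3 formula arrays lay above all breast-fed arrays, and breast-fed replicate 2 was the lowest of the 6. The difference was 11.8-fold (95% CI 5.40 to 25.9, adjusted p = 0.000477), and the log2 value of 3.56 became 2.94 without breast-fed replicate 2. Cyp27a1, the mitochondrial sterol 27-hydroxylase of bile acid synthesis, read 87.7, 190 and 123 against 354, 520 and 439. It was 3.25-fold higher (adjusted p = 0.0202), and the call ended without breast-fed replicate 1 or 3 or formula and hypoxia replicate 2. A second probe set for Cyp27a1 gave a log2 difference of 1.11.

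Cyp3a9 was 1 of 2 called members of the 37 measured genes for P450 and drug metabolism, beside 0.691% of all genes called higher. The list median was 0.13. The other was Nat2, an arylamine acetyltransferase, at 380 ± 160 in the breast-fed pups and 826 ± 44.8 under formula and hypoxia (2.28-fold, adjusted p = 0.0357). The Nat2 call ended in each leave-one-out fit except that without breast-fed replicate 3, as did the call of Gclm described next, and the other Nat2 probe sets gave 0.02 and 0.31. Cyp27a1 was the 1 called gene of 12 measured for bile acid handling, where 9 differences were positive and the median was 0.49. Hsd3b7, also an enzyme of bile acid synthesis, is not on that list and was picked after its values were seen. It was called 2.50-fold lower, but not without breast-fed replicate 2 or formula and hypoxia replicate 1. Gclm, which limits glutathione synthesis, was the 1 called gene of 26 for oxidative stress defence, at 193 ± 30.9 against 354 ± 18.8 (1.81-fold, adjusted p = 0.0357). The median of that list was 0.47 and became 0.21 without breast-fed replicate 2, in which 3 of its members had lost their signal. Hmox1, the heme oxygenase induced by oxidants, read 601, 430 and 456 against 957, 3225 and 1669, without overlap, but its adjusted p was 0.125.

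Mucosal defence and surface proteins differed in both directions. Lgals3, galectin-3, is a carbohydrate-binding lectin of epithelium and macrophages. It read 475, 2239 and 957 in the breast-fed pups and 6792, 5059 and 4407 under formula and hypoxia. The groups did not overlap, breast-fed replicate 2 was the highest of its group, and the difference was 5.26-fold (2.89 to 9.57, adjusted p = 0.00167). Without that array the log2 difference went from 2.39 to 2.97. Of 13 measured markers of macrophages and granulocytes, Lgals3 was the only one called. The macrophage markers C1qb and C1qc had log2 differences of -0.03 and 0.13, and Cd14 had 0.31.

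Dmbt1, a scavenger receptor protein secreted by the gut epithelium, read 524, 1143 and 508 against 4364, 1187 and 2854. Formula and hypoxia replicate 2 lay barely above breast-fed replicate 2. The difference was 3.62-fold (1.90 to 6.90, adjusted p = 0.0343), and its call ended without breast-fed replicate 1 or 3 or formula and hypoxia replicate 1 or 3. A second probe set gave 1.91. Reg3g, an antibacterial lectin of enterocytes and Paneth cells, read 43.5, 9.74 and 27.2 against 149, 96.6 and 75.0. It was 3.49-fold higher with an adjusted p of 0.0262, which became 0.147 without breast-fed replicate 2, its lowest array, and its call also ended without breast-fed replicate 3 or formula and hypoxia replicate 1 or 2. Its relative Reg3b, at 97.7 ± 23.4 and 358 ± 127, had an adjusted p of 0.101.

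In the opposite direction, Rnase4, a secreted ribonuclease, read 293, 281 and 351 in the breast-fed pups and 58.4, 95.8 and 84.5 under formula and hypoxia. The 3 breast-fed values were close together and all above the formula values, with a 3.66-fold fall (2.45 to 5.48, adjusted p = 0.000477). Reg3g and Rnase4 were the called members of 16 measured genes for antimicrobial and mucosal defence, a list with a median of 0.37. Alox15, a lipoxygenase that makes lipid mediators, read 258, 188 and 255 against 20.2, 91.3 and 99.6, with formula and hypoxia replicate 1 the lowest. It fell 3.57-fold (2.0 to 6.36, adjusted p = 0.0192). Without that array the fall was 2.32-fold and the call ended, as it did without breast-fed replicate 3. A second probe set gave -1.78.

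Klf4 and Fos were the 2 called members of 27 measured immediate early genes, which cells induce within minutes of a stimulus. Of the 27, 24 had a positive difference, 11 were higher without overlap and 2 were lower without overlap, beside 8.7% and 12.8% of all genes. The list median was 0.51. Klf4, a transcription factor of differentiating epithelium, read 111, 165 and 173 against 518, 297 and 540. It was 2.87-fold higher (1.92 to 4.31, adjusted p = 0.00364) and was called in all 6 leave-one-out fits. A second probe set for Klf4 gave 1.80. Fos, a subunit of the AP-1 transcription factor, read 186, 31.7 and 174 against 489, 563 and 310. Its 4.01-fold rise (adjusted p = 0.0103) rested in part on the low breast-fed replicate 2, without which the log2 difference of 2.0 became 1.25 (adjusted p = 0.0592). The Fos call also ended without formula and hypoxia replicate 1 or 2, and its other probe sets gave 1.25 and 2.18. Other members without overlap were below the threshold of the test, among them Atf3 (log2 difference 1.01, adjusted p = 0.0579), Myc (0.91, 0.0905), Junb (0.81, 0.147) and Dusp1 (1.20, 0.155).

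The remaining named rises were Ptprr, Lmna and LOC102549726. Ptprr, a receptor-type tyrosine phosphatase that acts on MAP kinases, read 36.8, 60.8 and 82.3 against 218, 204 and 177, a 3.16-fold rise (1.96 to 5.10, adjusted p = 0.00889). Lmna, which encodes lamins A and C, read 240, 269 and 212 against 579, 557 and 492, a 2.22-fold rise (1.58 to 3.13, adjusted p = 0.0103). Both groups were narrow for Lmna, and the calls of both genes ended without formula and hypoxia replicate 1. LOC102549726, annotated as a long noncoding RNA, read 140, 201 and 143 against 653, 714 and 596. It was 3.96-fold higher (2.54 to 6.17, adjusted p = 0.000540), was called in all 6 leave-one-out fits, and had a second probe set at 1.68.

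Dio1, type 1 deiodinase, which activates thyroid hormone by removing an outer ring iodine, had the largest fall of the 19 genes named by the rule. It read 199, 456 and 480 in the breast-fed pups and 36.6, 34.5 and 21.7 under formula and hypoxia. The lowest breast-fed value was far above the highest formula value, and the fall was 9.42-fold (5.04 to 17.6, adjusted p = 0.000220). A second probe set gave -2.39. Dio1 was the 1 called gene of 14 measured for thyroid hormone and retinoid signalling, where the median was -0.02 and 7 differences were positive. The thyroid hormone target Klf9 was higher without overlap, with a log2 difference of 1.38 and an adjusted p of 0.155.

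Fbp1, fructose-1,6-bisphosphatase of gluconeogenesis, read 840, 505 and 594 against 25.4, 96.0 and 134. The groups were well apart, with formula and hypoxia replicate 1 the lowest array, and the fall was 8.10-fold (4.48 to 14.6, adjusted p = 0.000220). Without that array it was 5.27-fold (adjusted p = 0.00173). It was the 1 called gene of 13 measured for gluconeogenesis and fructose handling, whose median was -0.15. Slc2a2, the basolateral sugar transporter GLUT2, read 566, 762 and 610 against 22.2, 264 and 249, also without overlap, and had an adjusted p of 0.0579. Pck1, phosphoenolpyruvate carboxykinase, read 315, 156 and 161 against 56.5, 233 and 569, so that the groups overlapped fully, and its log2 difference was 0.0016.

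Slc11a2, the apical iron transporter DMT1, read 732, 508 and 427 against 244, 252 and 210, a 2.27-fold fall (adjusted p = 0.0364). Its 2 other probe sets gave -1.23 and -1.16, but the call ended in every leave-one-out fit except that without breast-fed replicate 3. It was the 1 called gene of 13 for metallothioneins and iron handling, beside 1.29% of all genes called lower. Acaa1b, a peroxisomal thiolase of fatty acid oxidation, went the other way, at 84.1 ± 13.6 against 184 ± 20.5 (2.09-fold higher, adjusted p = 0.0262). It was the 1 called gene of 28 for fatty acid oxidation and ketone synthesis, where 10 differences were positive and the median was -0.11, and its call was kept in only 1 of 6 leave-one-out fits.

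The chymase genes Mcpt1, Mcpt4 and Vch were all called lower. Chymases are serine proteases stored in mast cell granules, and Vch, the vascular chymase, is also known from vascular smooth muscle. Mcpt1 read 751, 656 and 928 in the breast-fed pups and 45.0, 146 and 124 under formula and hypoxia, a 7.59-fold fall (3.74 to 15.4, adjusted p = 0.00121). Vch read 191, 296 and 416 against 6.15, 63.8 and 30.9, an 8.65-fold fall (4.15 to 18.0, adjusted p = 0.000934). Without formula and hypoxia replicate 1, whose value lay below the pseudocount, Vch fell 5.58-fold, and with a pseudocount of 32 its log2 difference went from -3.11 to -2.38. Mcpt4 read 52.2, 133 and 211 against 2.97, 10.6 and 4.25. No array overlapped between the groups for these genes, and formula and hypoxia replicate 1 was the lowest for all 3. For Mcpt4 the formula values lay around or below the pseudocount, so its size is uncertain: the log2 difference of -3.18 ranged from -3.98 with a pseudocount of 2 to -1.99 with 32. All 3 genes were called in all 6 leave-one-out fits.

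These were the 3 called genes among 10 measured of 18 listed mast cell markers, and 0 were called higher. The median was -0.64, with 3 positive differences. At an unadjusted p under 0.05, 4 were lower and 1 was higher, beside 8.29% and 6.72% of all genes. Without overlap, 4 were lower and 0 higher, beside 12.8% and 8.7% of all genes. Cma1, a further chymase, read 145, 136 and 163 against 59.8, 112 and 92.1 without overlap (adjusted p = 0.215). Cpa3, the mast cell carboxypeptidase, read 47.9, 107 and 62.5 against 30.0, 75.4 and 38.4, with overlap (log2 difference -0.54, adjusted p = 0.641). The tryptase Tpsb2 read 132, 109 and 151 against 139, 175 and 131, and the tryptase Tpsab1 had a log2 difference of 0.54 (adjusted p = 0.263). Srgn, a granule proteoglycan of mast cells and leukocytes, is not on the list and was picked after its values were seen. It was called 2.45-fold lower (adjusted p = 0.00647), but not without formula and hypoxia replicate 1. The summed signal of the 10 genes was 1906 to 2667 in the breast-fed pups and 1000 to 1377 under formula and hypoxia. Fewer cells of a type and less RNA per cell cannot be told apart in bulk tissue, here or for any list.

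The 3 called chymase genes lie on rat chromosome 15, with promoters that are close in sequence. The 250 bases before each annotated start (RefSeq, GRCr8) are shown because all 3 genes were called lower. Capitals mark the letters TGATAA on either strand (TTATCA on the reverse), part of the sites of GATA factors, and TATAAA. Mcpt1 is at chr15:33841356-33841605, Mcpt4 at chr15:33471241-33471490, Vch at chr15:33569491-33569740, all on the plus strand, and Cma1, shown as the chymase that was not called, at chr15:33390134-33390383 on the minus strand.
Mcpt1: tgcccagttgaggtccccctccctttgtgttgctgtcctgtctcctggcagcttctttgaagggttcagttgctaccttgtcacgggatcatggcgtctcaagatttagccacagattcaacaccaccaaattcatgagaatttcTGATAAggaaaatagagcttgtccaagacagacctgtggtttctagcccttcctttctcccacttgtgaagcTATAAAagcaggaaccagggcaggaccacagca
Mcpt4: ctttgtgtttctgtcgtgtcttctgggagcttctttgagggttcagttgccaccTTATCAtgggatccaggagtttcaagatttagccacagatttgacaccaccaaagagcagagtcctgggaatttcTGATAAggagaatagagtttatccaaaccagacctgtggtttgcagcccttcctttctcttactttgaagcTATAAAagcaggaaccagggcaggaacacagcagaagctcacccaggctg
Vch: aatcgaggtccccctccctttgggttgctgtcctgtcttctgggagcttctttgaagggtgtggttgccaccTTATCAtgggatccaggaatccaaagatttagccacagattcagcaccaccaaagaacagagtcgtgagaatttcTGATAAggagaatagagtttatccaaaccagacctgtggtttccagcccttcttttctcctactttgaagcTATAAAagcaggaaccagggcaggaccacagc
Cma1: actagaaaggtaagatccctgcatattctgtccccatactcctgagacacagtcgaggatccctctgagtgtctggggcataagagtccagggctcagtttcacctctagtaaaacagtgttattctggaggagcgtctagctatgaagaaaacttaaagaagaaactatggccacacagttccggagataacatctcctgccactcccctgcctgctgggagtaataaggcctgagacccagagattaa
In an alignment with free ends, Mcpt4 and Vch were identical at 91.0% of 233 columns, Mcpt1 and Vch at 85.7% of 251, and Mcpt1 and Mcpt4 at 85.1% of 235. The longest run shared by all 3 was 31 bases. TGATAA occurs on either strand in 7.97% of 33469 promoters of this length, TATAAA in 12.9% and both in 1.65%. All 3 called chymases held both, and neither was in the Cma1 window. That window does hold AGATAA, which shares the letters GATAA, and other forms of the GATA site were not searched. The 3 windows are close in sequence, so motifs they share are not separate observations. Whether the probe sets of these genes also hybridise each other's transcripts was not tested, so the 3 falls may not be independent measurements. The windows shown lie upstream of the transcripts and do not bear on it.

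A pair of serum protein genes fell as well. Afp, the fetal serum protein alpha-fetoprotein, read 3742, 1679 and 3071 in the breast-fed pups and 105, 938 and 459 under formula and hypoxia. It fell 7.31-fold (2.89 to 18.5, adjusted p = 0.0224), and its 4 other probe sets gave -1.68 to -3.46. The lowest array was formula and hypoxia replicate 1. Without it the fall was 4.05-fold and the call ended (adjusted p = 0.203), as it did without breast-fed replicate 1 or 3, and without formula and hypoxia replicate 2 the fall was 11.7-fold. Itih3, a heavy chain of the inter-alpha-trypsin inhibitors that bind hyaluronan, read 343, 217 and 105 against 38.0, 48.5 and 23.3. It fell 4.79-fold (2.91 to 7.87, adjusted p = 0.000477) in spite of the breast-fed spread, and was called in all 6 leave-one-out fits. These were the 2 called genes of 17 measured for liver and fetal serum proteins, whose median was -0.14, beside 1.29% of all genes called lower. The liver products Ttr and F2 had log2 differences of -0.14 and -0.18.

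H19 and Igf2 are imprinted neighbours that are highly expressed in fetal tissue, H19 as a noncoding RNA and Igf2 as a growth factor. H19 read 9642, 6967 and 6323 against 990, 4074 and 3071, a 3.24-fold fall (1.86 to 5.64, adjusted p = 0.0231). A second H19 probe set gave -1.55. Igf2 read 5135, 3208 and 2778 against 928, 1610 and 999, a 3.12-fold fall (1.68 to 5.77, adjusted p = 0.0465). The groups did not overlap for either gene, but the Igf2 call ended in every leave-one-out fit, and the H19 call ended without breast-fed replicate 1 or 2 or formula and hypoxia replicate 1. Without the last of these the H19 fall was 2.12-fold. Igf2 has 5 dimmer probe sets, of which 1 gave -2.47 and 4 gave 0.10 to 0.29. H19 and Igf2 were the 2 called of 14 measured genes of the insulin-like growth factor system, beside 1.29% of all genes called lower. The list median was 0.09, with 9 positive differences. Igf1, Igf1r and Igfbp3 had log2 differences of -0.11, 0.11 and -0.15.

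Tnnt2, Bex3 and Cd1d1 were also called lower. Tnnt2, the troponin T of heart and of developing muscle, read 487, 510 and 509 against 121, 107 and 103. Both groups were narrow, and the fall was 4.33-fold (2.68 to 6.99, adjusted p = 0.000590). Bex3, a small adaptor protein of neurotrophin receptor signalling, read 780, 831 and 716 against 346, 386 and 305, a 2.22-fold fall (1.67 to 2.96, adjusted p = 0.00166). Tnnt2 and Bex3 were called in all 6 leave-one-out fits. Of 14 smooth muscle and 18 enteric neuron and glia genes measured, 0 were called by limma. At an unadjusted p under 0.05, 1 muscle gene was higher and 1 lower, and 1 neural gene was lower. The shares over all genes were 6.72% higher and 8.29% lower. Cd1d1, which presents lipid antigens, read 239, 356 and 277 against 140, 104 and 154, a 2.13-fold fall (adjusted p = 0.0163) whose call ended without breast-fed replicate 2 or formula and hypoxia replicate 1 or 2.

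Of 41 measured fibroblast and matrix genes 3 were called lower and 0 higher, beside 1.29% and 0.691% of all genes. The list median was -0.05. At an unadjusted p under 0.05, 7 were lower and 2 higher, beside 8.29% and 6.72% of all genes. Without overlap, 8 were lower and 2 higher, beside 12.8% and 8.7%. Postn, the matrix protein periostin, read 250, 204 and 313 against 28.1, 85.1 and 67.6, a 4.10-fold fall (adjusted p = 0.0465). Lum, the collagen-binding proteoglycan lumican, read 236, 340 and 376 against 58.6, 85.7 and 112, a 3.51-fold fall (adjusted p = 0.0357). Spp1, osteopontin, read 51.8, 64.3 and 182 against 13.3, 12.5 and 34.2, a 3.54-fold fall (adjusted p = 0.0262). Spp1 was the 1 of these called without breast-fed replicate 2, and the Postn call ended in every leave-one-out fit. The Lum call ended without breast-fed replicate 2 or 3 or formula and hypoxia replicate 1 or 2. Spp1 lost its call without breast-fed replicate 3 or formula and hypoxia replicate 1 or 2. The fibrillar collagen genes Col1a1 and Col1a2 had log2 differences of -0.79 and -0.96 and adjusted p of 0.465 and 0.204.

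The lysosomes of the suckling ileum digest milk proteins. Of 32 measured genes for lysosomal enzymes and the neonatal Fc receptor, 10 had a positive difference, 2 were called lower and 0 higher, and the median was -0.42. At an unadjusted p under 0.05, 12 were lower and 1 was higher, beside 8.29% and 6.72% of all genes. Arsb, a lysosomal sulfatase, read 303, 209 and 198 against 93.3, 147 and 77.0 (2.19-fold lower, adjusted p = 0.0357). Cst3, an inhibitor of cathepsins, read 7974, 6110 and 7125 against 4636, 4697 and 2793 (1.79-fold lower, adjusted p = 0.0465). Neither was called without breast-fed replicate 2, when the lysosomal membrane protein Lamp1 was called higher, and the Cst3 call ended in every leave-one-out fit. The Arsb call also ended without breast-fed replicate 1 or formula and hypoxia replicate 1 or 3.

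Some genes were named for their link to necrotizing enterocolitis, whatever their values. Of those tested, none was called, beside 1.98% of all genes. Areg had the smallest adjusted p by limma, at 0.0579. Of 21 measured inflammatory cytokine and NF-kB target genes, 2 were called higher and 0 lower, beside 0.691% and 1.29% of all genes. Of these 21, 17 had a positive difference, and the median was 0.30. At an unadjusted p under 0.05, 5 were higher and 1 was lower, beside 6.72% and 8.29% of all genes. Without overlap, 5 were higher and 1 was lower, beside 8.7% and 12.8%. Nfkbia, the inhibitor that NF-kB itself induces, read 74.9, 78.1 and 119 against 445, 358 and 209, a 3.41-fold rise (adjusted p = 0.0444). Ptgs1, the constitutive cyclooxygenase, read 34.2, 16.9 and 47.4 against 97.0, 80.7 and 81.2, a 2.43-fold rise (adjusted p = 0.0444). Neither call was kept without breast-fed replicate 2, at adjusted p of 0.135 and 0.237. The Ptgs1 call was kept only without breast-fed replicate 3, and the Nfkbia call only without formula and hypoxia replicate 3. Il1b read 40.2, 63.5 and 74.1 against 84.3, 68.4 and 61.5, which overlapped, and its fold change was 1.20 (0.798 to 1.81, adjusted p = 0.738).

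Il18, Il10, Nos2, Ptafr, Vegfa and Muc2 overlapped or differed by less than 2-fold, with adjusted p of 0.601 to 0.983. The interval for Nos2, the inducible nitric oxide synthase, ran from 0.503-fold to 3.82-fold lower, and its 3 dimmer probe sets gave log2 differences of -0.32, 0.20 and 0.54. Areg, an epidermal growth factor receptor ligand, read 33.8, 99.6 and 69.7 against 277, 222 and 156, without overlap, at 3.14-fold (1.64 to 6.0, adjusted p = 0.0579). Lcn2, an antibacterial iron chelator of inflamed epithelium, read 225, 390 and 195 against 749, 744 and 340, and had an adjusted p of 0.245. Tff3, the goblet cell trefoil peptide, was 5169 ± 1115 against 3144 ± 238, without overlap (adjusted p = 0.263). Fabp2, the enterocyte fatty acid binding protein used as a marker of gut injury, had a log2 difference of 0.27 (adjusted p = 0.631). Tnf, Il6, Ptgs2, Pla2g2a, Tlr4, Cxcl2 and Egf were not tested, because every probe set with their symbol fell below the filter on low signal.

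Among chemokines, Ccl11, eotaxin, which attracts eosinophils, read 19.4, 52.0 and 124 against 2.46, 14.1 and 6.94. The groups did not overlap but the values were dim, and the 3.98-fold fall (adjusted p = 0.0409) was kept only without breast-fed replicate 1. It was the 1 called gene of 10 measured. For the hypoxia response and glycolysis, 27 genes were measured and 0 were called by limma. At an unadjusted p under 0.05, 4 were higher and 0 lower, beside 6.72% and 8.29% of all genes. Without overlap, 4 were higher and 0 lower, beside 8.7% and 12.8%. The list median of 0.19 became 0.08 without breast-fed replicate 2. Pgam1, a glycolytic mutase, read 1261, 1921 and 1519 against 3664, 2395 and 2378 without overlap (adjusted p = 0.0717). Kcnk1, a potassium channel, was the 1 called of 27 genes for sodium and water transport, at 65.7, 7.0 and 79.1 against 166, 156 and 122 (3.38-fold, adjusted p = 0.0190). Breast-fed replicate 2 was its lowest array, and without it the log2 difference of 1.75 became 0.95 (adjusted p = 0.0592). Its call also ended without formula and hypoxia replicate 1 or 2.

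**Figure D3:**
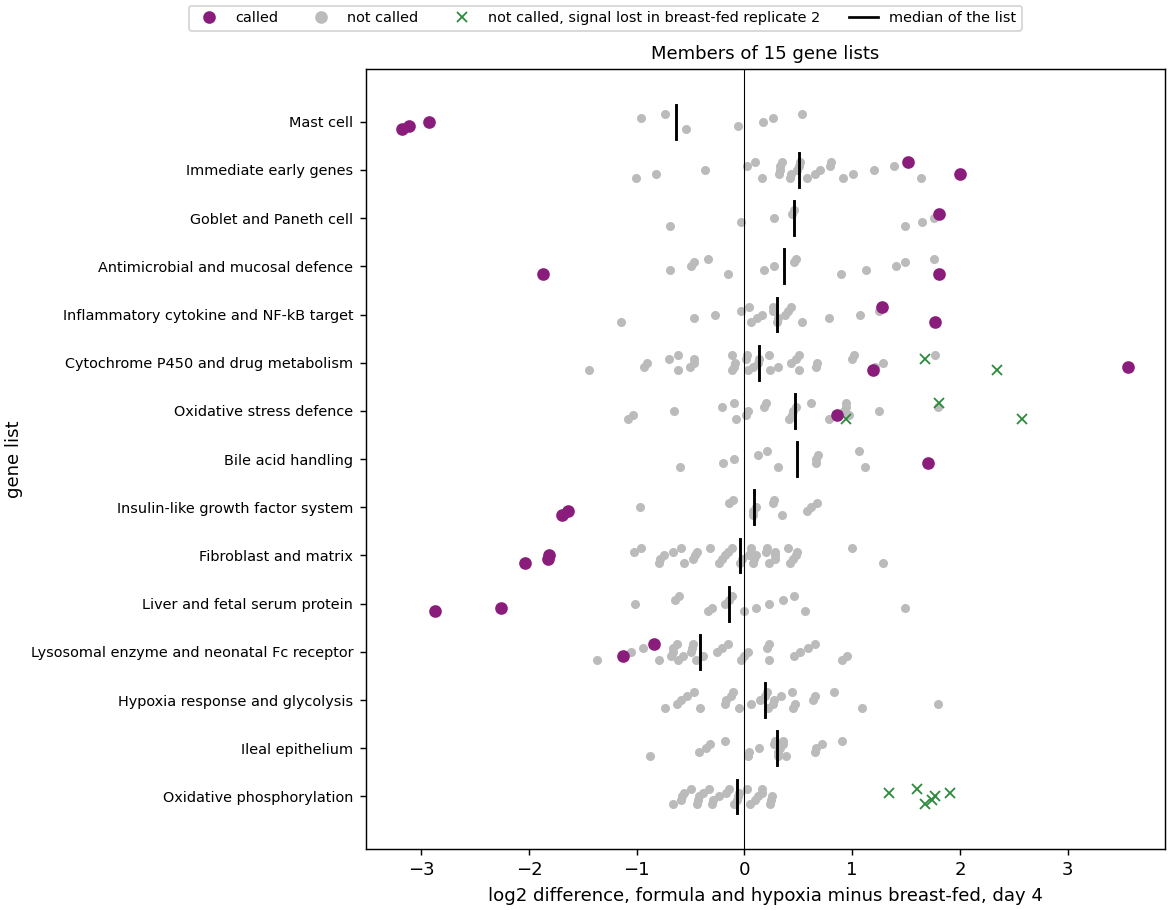
Log2 difference on day 4 for the measured members of 15 gene lists, 1 point per gene, with called genes in purple, genes whose signal was lost in breast-fed replicate 2 as green crosses, and the list median as a black bar. The 3 called mast cell genes lie apart from the other 7, and the 6 highest members for oxidative phosphorylation are all genes lost in that array.

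Across the 42 lists, 23 had no called member and 19 had at least 1. The shares called over all genes, 0.691% higher and 1.29% lower, apply beside every count of called members. The 63 called genes held 29 list members and 34 genes on no list. Cell type lists with 0 calls by limma were those for enteroendocrine cells, lymphocytes, red cells, exocrine pancreas, fat tissue and endothelium beside those for epithelium, muscle and nerve given above. At an unadjusted p under 0.05 the 6 lists had 0, 0, 0, 1, 3 and 0 members higher and 0, 1, 0, 0, 0 and 0 lower, in that order. They had 12, 10, 9, 9, 8 and 8 genes measured, and the shares over all genes were 6.72% higher and 8.29% lower. All 8 measured fat tissue genes had a positive difference, with a median of 0.35. Reg3g was the 1 called gene of 9 measured for goblet and Paneth cells.

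The 25 genes whose used probe set was lost in breast-fed replicate 2 showed what that array can do. Their median log2 difference was 1.68 with the array and -0.17 without it, and 0 of them were called by limma in either direction, with 10 at an unadjusted p under 0.05. Cox4i1, a subunit of cytochrome oxidase, read 6440, 97.9 and 5477 in the breast-fed pups and 4120, 5411 and 6579 under formula and hypoxia, so its log2 difference was 1.77 with the array and -0.17 without it. The 34 measured genes of oxidative phosphorylation included 6 such genes, and 0 of the 34 were called by limma. At an unadjusted p under 0.05, 2 were higher and 0 lower, beside 6.72% and 8.29% of all genes. The median of 18 heat shock protein genes went from 0.40 to 0.0021 without the array, although none of them met the definition of a lost probe set.

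The 42 genes that lost their call without breast-fed replicate 2 were 14 rises and 28 falls. The 5 genes called only without it were Prr13, Gsr, Lamp1, C1qbp and Muc3, all higher under formula and hypoxia and named here after their values were seen. Muc3, a membrane mucin of the enterocyte surface, read 580, 630 and 167 against 1447, 1391 and 990, with an adjusted p of 0.0504 with all arrays and 0.0440 without replicate 2. Gsr, glutathione reductase, read 130, 365 and 274 against 501, 426 and 456.

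**Figure D4:**
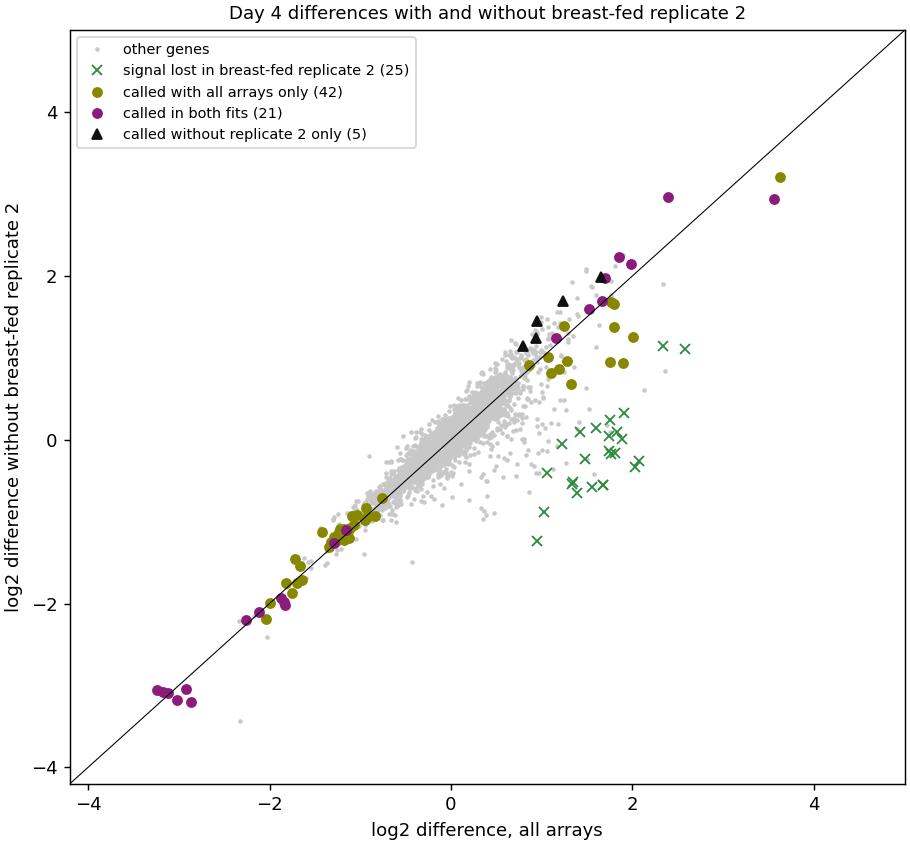
Log2 difference of 3185 genes with all arrays (horizontal axis) and without breast-fed replicate 2 (vertical axis), with the line of equality. The 21 genes called both ways are purple, the 42 called only with all arrays olive, the 5 called only without the array black, and the 25 genes with lost signal, green crosses, fall from a median of 1.68 to -0.17.

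The 13 genes called in all 6 leave-one-out fits were Cyp3a9, Lgals3, LOC102549726 and Klf4 among the rises and Dio1, Mcpt4, Vch, Fbp1, Mcpt1, Itih3, Tnnt2, Rnase4 and Bex3 among the falls. Of the 63 called genes, 26 had further probe sets, 40 in all. Of these, 35 had the same sign as the probe set used and 26 had more than 0.5 times its log2 difference.

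The day 4 differences were set beside those of days 1 to 3, which share no array with day 4. On days 1, 2 and 3 the same test called 9 (0.283%), 47 (1.48%) and 64 (2.01%) genes, of which 2, 12 and 21 were also called on day 4 with the same sign. These were 22.2%, 25.5% and 32.8% of the calls of days 1, 2 and 3, and 3.17%, 19.05% and 33.3% of the day 4 calls. The 63 day 4 genes had their day 4 sign on day 1 in 43 cases, on day 2 in 48 and on day 3 in 62, beside 59.8%, 56.9% and 69.3% of all genes. As a description across genes, which are not independent replicates, the differences of day 4 correlated with those of days 1, 2 and 3 with Pearson's r of 0.27, 0.31 and 0.55. Without the breast-fed day 3 and day 4 arrays that had lost probe sets, these were 0.27, 0.344 and 0.547.

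Levels by day showed separate courses in the 2 regimens. Fbp1 had means of 129, 163, 288 and 646 on days 1 to 4 in the breast-fed pups and 184, 97.4, 104 and 85.1 under formula and hypoxia. Itih3 had means of 37.2, 45.8, 80.2 and 222 against 41.4, 39.0, 40.4 and 36.6. For both genes the breast-fed mean on day 4 lay above that of the unfed newborns, which was 130 for Fbp1 and 35 for Itih3. The formula and hypoxia means of Itih3 stayed near the unfed mean. For Fbp1 the day 4 formula arrays read 25.4, 96.0 and 134, beside 90.8, 213, 116 and 102 in the unfed newborns. Differences from the unfed newborns were not tested here.

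Dio1 had breast-fed means of 155, 182, 292 and 379 and means of 104, 37.5, 42.5 and 30.9 under formula and hypoxia, so both courses left the unfed level of 133. Tnnt2 stayed between 401 and 510 in the breast-fed pups and had means of 360, 212, 137 and 110 under formula and hypoxia. Mcpt1 was at 950, 930, 891 and 779 against 391, 195, 123 and 105, and had a negative difference on every day. Bex3 had formula means of 1117, 854, 518 and 345, beside an unfed level of 1125. Its breast-fed means were 899, 1021 and 804 on days 1 to 3, and the day 4 breast-fed arrays read 780, 831 and 716.

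In the rises given here the formula mean went up from each day to the next. Cyp3a9 had breast-fed means of 113, 73.4, 74.3 and 73.1 and formula means of 200, 314, 712 and 857, beside an unfed level of 81.0. Lgals3 had means of 537, 395, 1266 and 1224 against 1796, 3339, 4254 and 5419, and was apart from day 1 on. Klf4 had means of 103, 88.9, 145 and 149 against 101, 128, 232 and 452, and Dmbt1 had 614, 490, 1086 and 725 against 683, 783, 2039 and 2802. The changes between days within a regimen were not tested here. The breast-fed day 4 arrays were all from the second accession run, and most breast-fed arrays of days 1 to 3 from the first. Day and run cannot be fully told apart in the breast-fed courses.

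**Figure D5:**
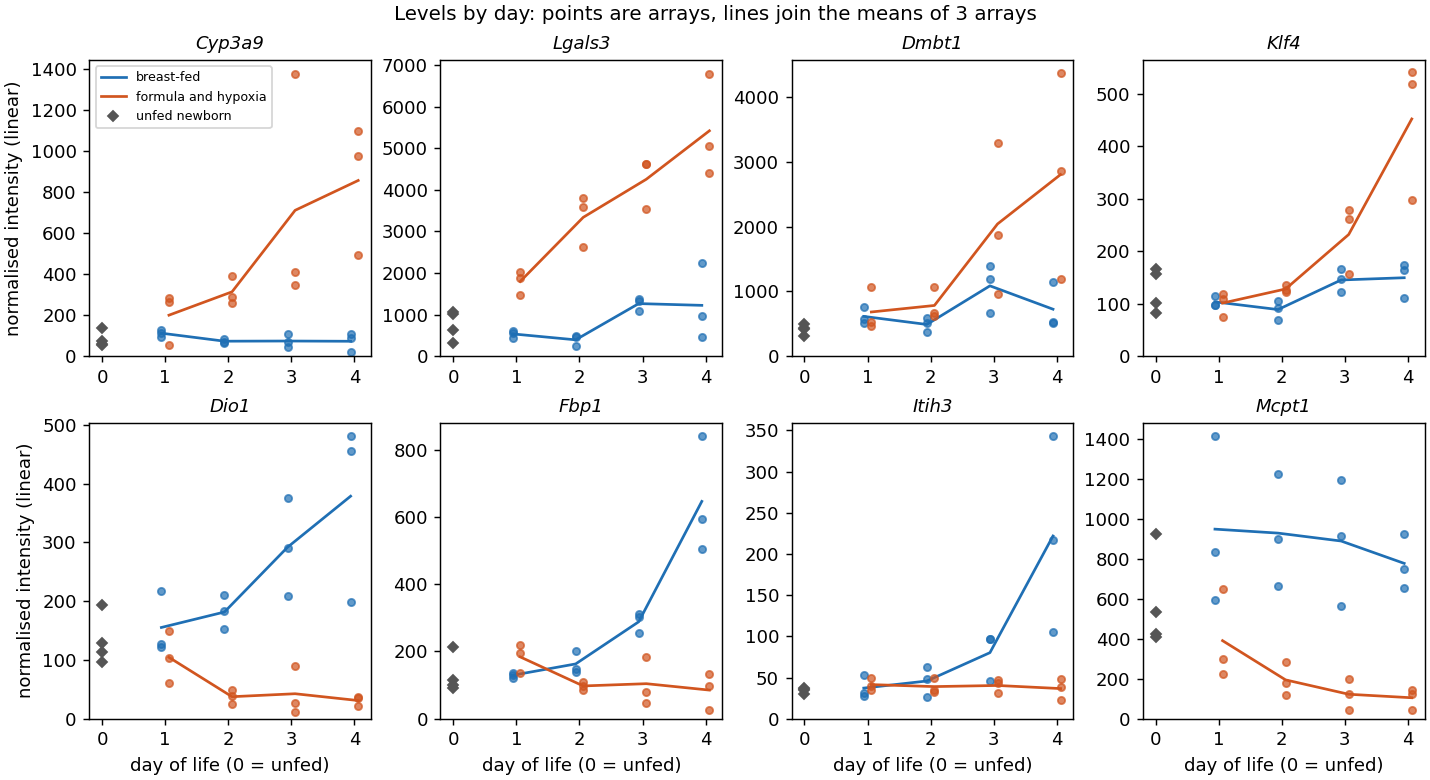
Normalised intensity (linear axis from 0) by day of life for 8 genes named by the rule, with 1 point per array, lines through the means of 3 arrays, blue for breast-fed, orange for formula and hypoxia and grey diamonds for 4 unfed newborns at day 0. Cyp3a9, Lgals3, Dmbt1 and Klf4 have their highest mean under formula and hypoxia on day 4, while Dio1, Fbp1 and Itih3 reach their highest mean in the breast-fed pups on day 4, at 379, 646 and 222.

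The test of what differed on day 4 set its difference against the mean of the differences on days 1 to 3. It called 4 genes (0.126%), with 215 at an unadjusted p under 0.05. Fbp1 had a mean log2 difference of -0.60 on days 1 to 3 and of -3.02 on day 4, a change of -2.41 (95% CI -3.40 to -1.43, adjusted p = 0.0474). Itih3 went from -0.27 to -2.26, a change of -1.99 (-2.82 to -1.16, adjusted p = 0.0474). Cd1d1 went from 0.22 to -1.09, a change of -1.31 (-1.87 to -0.75, adjusted p = 0.0479). The fourth was Me1, malic enzyme, which supplies NADPH for fatty acid synthesis, named here after its values were seen. It went from -0.81 to 1.35, a change of 2.16 (1.26 to 3.06, adjusted p = 0.0474), and its day 4 difference alone had an adjusted p of 0.0622. Without breast-fed replicate 2 these changes were -2.57, -1.93, -1.15 and 2.08, and 0 genes were called by limma, with 187 at an unadjusted p under 0.05. All breast-fed day 4 arrays came from the second accession run. On days 1 to 3 the first run held all arrays but breast-fed day 1 replicate 2 and day 3 replicate 3. Day 4 and run thus cannot be fully told apart in this test. With the run as a term, 1 gene was called by limma, with 198 at an unadjusted p under 0.05. The other named genes are not shown to differ more on day 4 than before. For 61 of the 63 genes the day 4 difference lay further in its own direction than the mean of days 1 to 3, which is a description, since these genes were chosen on day 4.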

How the data were processed

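The labels describe total RNA from the terminal ileum of single rat pups, and groups and replicate numbers were read from the titles. The deposited values are probe set intensities on a linear scale, which the authors had scaled so that 26 of 28 arrays shared a trimmed mean. How the signals were background-corrected and summarised, and with what software, is not given in the sources used here. Of 8799 probe sets, 59 controls were left out, and gene symbols came from the platform annotation (1 symbol for 7006, several for 308, none for 1426).

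Intensities were quantile normalised, a pseudocount of 8 was added, and log2 was taken. Probe sets with a mean above the 40th percentile (a signal of 24.0) were kept, and each gene was represented by its brightest one, leaving 3185 of 4736 genes. limma 3.58.1 in R 4.3.3 fitted 1 mean per group to all 28 arrays (19 residual degrees of freedom) with an intensity trend. P-values are two-sided with Benjamini-Hochberg adjustment over all genes tested, called under 0.05, and intervals are 95%. With 3 arrays against 3, an exact permutation test could not go below 0.1, and the number of arrays limits the precision, as does their quality (estimated array weights of 0.528 to 2.66 on day 4). Nothing says whether pups were littermates, so litter could not be taken into account. The p-values rest on a spread between pups pooled over all 9 groups, not on that of the day 4 pups alone. The fit was checked on simulated data.

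Named genes were those called with and without breast-fed replicate 2, with no overlap between groups and a mean of at least 100 in the higher group (at most 12 each way). To these were added up to 4 called members of each of 42 lists, up to 6 genes called both on day 4 and against days 1 to 3, and 20 disease genes. The comparison and the lists were chosen with earlier results of these data known. Alternatives covered the pseudocount, scaling, filter, probe sets, arrays fitted, array weights, a replicate block, the accession run and leaving out each array. Same-numbered arrays did not vary together (correlations -0.125, -0.049 and 0.010), so the numbers were not used as pairs. Promoters are from RefSeq, GRCr8, and were aligned with Biopython 1.88.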

Additional observations from a re-analysis of the deposited data

Results flagged for a closer look

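For 4 genes the difference between the regimens on day 4 differed from the mean of the differences on days 1 to 3 by a test of that change itself. The change was -2.41 on the log2 scale for Fbp1 (adjusted p = 0.0474), -1.99 for Itih3 (0.0474), -1.31 for Cd1d1 (0.0479) and 2.16 for Me1 (0.0474). Under limma with each of 3 arrays left out in turn (breast-fed replicate 1 or 2, or formula and hypoxia replicate 2), 0 genes passed, with 241, 187 and 216 at an unadjusted p under 0.05, and the part of those arrays in the result was not tested further. Groups of 3 arrays were too small for a check on single deviating samples.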

How the results depend on the processing

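None of the 63 called genes changed sign with the deposited scaling, a common median or the accession run as a term. Under settings that leave out arrays their lack of overlap leaves no room to turn, so signs there are no measure of stability. The number of genes called varied. The main fit gave 63 (22 higher, 41 lower) and 4 genes that differed from days 1 to 3. Leaving out 1 array at a time gave 16 to 55 genes (6 to 26 higher, 10 to 35 lower) and 0 to 1. Without both breast-fed arrays that had lost probe sets there were 38 (19 lower) and 0. With the deposited scaling 12 were higher, and with a common median there were 39 (10 higher), with 0 against days 1 to 3 under both. These scalings moved the median of all genes to -0.077 and -0.080, and the share of higher calls from 22 of 63 to 12 of 54 and 10 of 39. A pseudocount of 32 gave 34 higher and log2 differences of -2.63 for Dio1, -1.23 for Spp1 and -1.15 for Ccl11, and no filter on low signal left 1 gene against days 1 to 3. Testing each probe set gave 34 higher and 1 against days 1 to 3. Array weights gave 122 (54 higher, 68 lower), of which 62 were among the 63. Fitting the 6 day 4 arrays alone gave 11 (4 higher, 7 lower), of which 8 were among the 63, with fewer arrays to estimate the spread. The accession run as a term gave 19 (8 higher, 11 lower) and 1, and the second run alone gave 0, 0 and 0. With the replicate number as a block, 20 genes were called (8 higher, 12 lower) and 0 against days 1 to 3, but the numbers did not pair the arrays. Beside these counts of 0 by limma, genes at an unadjusted p under 0.05 numbered 142 in the second run, and against days 1 to 3 they numbered 187 without both arrays, 220, 174 and 199 with deposited scaling, common median and block. The cause of these shifts was not tested. Dim genes are limited by signal: the formula values of Mcpt4, Vch, Ccl11 and the second Fabp6 probe set reach the pseudocount.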

Other observations

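Several called genes outside the rule for naming, picked here after their values were seen, had further roles. Ly6al, a lymphocyte antigen 6 family gene, read 311, 152 and 472 in the breast-fed pups and 6609, 2144 and 3264 under formula and hypoxia. The groups did not overlap, and the difference was 12.4-fold (95% CI 4.26 to 36.1, adjusted p = 0.0103). The call ended without breast-fed replicate 2 (adjusted p = 0.0634) or formula and hypoxia replicate 1, and a second probe set gave 3.31. Means on days 1 to 4 were 248, 421, 598 and 312 in the breast-fed pups and 375, 642, 1283 and 4006 under formula and hypoxia.

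Srgn, the proteoglycan of mast cell and leukocyte granules, read 43.2, 55.7 and 60.9 against 12.2, 20.6 and 18.5. It was 2.45-fold lower (1.71 to 3.51, adjusted p = 0.00647). Its call held without breast-fed replicate 2 (adjusted p = 0.0331) but not without formula and hypoxia replicate 1. Hsd3b7, an enzyme of bile acid synthesis, read 340, 377 and 308 against 64.9, 169 and 202 (2.50-fold lower, adjusted p = 0.0231). Cd86, a costimulatory protein of antigen-presenting cells, read 118, 201 and 196 against 61.0, 38.0 and 44.8 (3.17-fold lower, adjusted p = 0.0409). Bmp7, a bone morphogenetic protein, read 167, 110 and 122 against 15.4, 25.1 and 82.3 (3.37-fold lower, adjusted p = 0.0444). Neither Hsd3b7, Cd86 nor Bmp7 was called without breast-fed replicate 2.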
